A study of Homo sapiens with 58 samples.

Results

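Nodal and activin signals were followed through 9 genes of the 19084 in the deposited tables: the ligands NODAL, GDF3 and INHBA, the co-receptor TDGF1, the transcription factor FOXH1, and the secreted antagonists LEFTY1, LEFTY2, CER1 and FST. The rule that names them uses their known roles in the pathway and no measured value, but it was set with earlier results of these data known. All 9 were found in the tables, 8 passed the filter on low counts in the daily libraries, and INHBA did not. In the time course 5 passed, namely NODAL, CER1, TDGF1, FOXH1 and FST, while LEFTY1, LEFTY2, GDF3 and INHBA did not.

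RNA was sequenced from the human embryonic stem cell line H1 (wild type) on the way to somites, the blocks of mesoderm that later give vertebrae and muscle. On each of 4 days 3 libraries were made. Day0 was undifferentiated cells in E8, a defined stem cell medium that contains FGF2 and TGFβ1. Day1 was mesendoderm, the shared precursor of mesoderm and endoderm, after 24 h in E8 with 100 ng/mL activin A and 3 µM CHIR99021, a Wnt pathway activator. Day2 was presomitic mesoderm, the tissue that segments into somites, after 24 h more in E6, which lacks FGF2 and TGFβ1, with 2 µM A83-01, 3 µM CHIR99021, 100 ng/mL FGF2 and 100 ng/mL NOGGIN. A83-01 inhibits the receptor kinases of activin, nodal and TGFβ, and NOGGIN is a BMP antagonist. Day3 was somite cells in E6, again with 2 µM A83-01 and 100 ng/mL NOGGIN, and now with 1 µM PD0325901 and 2.5 µM IWR1, which inhibit MEK and the Wnt pathway. A separate time course of presomitic mesoderm had 2 libraries at each of 23 times, every 30 min from 30 to 690 min. Neither its medium nor its zero point is given by the labels. Several agents changed together at each daily step, so the part of any single agent in a difference between days cannot be told apart, and the same holds for elapsed time.

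Nodal and activin are secreted ligands of the TGFβ family that act through shared activin receptors and the signal carriers SMAD2 and SMAD3, which enter the nucleus with SMAD4 and bind DNA with partners such as FOXH1. Nodal needs the co-receptor TDGF1 (Cripto), whereas activin does not, and human pluripotent stem cells depend on this pathway to stay undifferentiated. Lefty proteins and Cerberus (CER1) block nodal outside the cell, follistatin (FST) binds activin and holds it from its receptors, and in vertebrate embryos NODAL and the lefty genes are themselves targets of nodal signals.

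LEFTY1 and LEFTY2 lie near each other on chromosome 1 and are close copies, which bears on how far their reads can be separated. In GRCh38 with GENCODE 29 models (transcripts LEFTY1-201 and LEFTY2-201), their coding sequences differed at 31 of 1098 aligned positions, so that 97.2% were identical, and 493 of the 1049 windows of 50 bases in the LEFTY1 coding sequence, or 47.0%, also occurred in LEFTY2. Expected counts that were not whole numbers, the sign that reads were divided between genes, occurred for LEFTY1 in 7 of 58 libraries. Only 19 libraries had any count of the pair, and the 7 included every library of Day0 and Day1. In 6 of these 7 the LEFTY1 and LEFTY2 counts summed to a whole number within 0.015. Each LEFTY gene is therefore uncertain on its own, and the summed pair is given beside it.

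Promoters of 3 members with contrasting courses are shown from RefSeq (GRCh38.p14), each from 250 bases before to 50 bases after the start site: NODAL (chr10:70441632-70441931, minus strand), CER1 (chr9:14722684-14722983, minus strand) and FST (chr5:53480379-53480678, plus strand). Capitals mark the SMAD box CAGAC (reverse GTCTG), the FOXH1 motif TGTNNATT (reverse AATNNACA), the TCF/LEF motif CTTTGAT (reverse ATCAAAG) and the T-box half-site AGGTGT (reverse ACACCT). Both strands were searched, and no hits overlapped.
NODAL: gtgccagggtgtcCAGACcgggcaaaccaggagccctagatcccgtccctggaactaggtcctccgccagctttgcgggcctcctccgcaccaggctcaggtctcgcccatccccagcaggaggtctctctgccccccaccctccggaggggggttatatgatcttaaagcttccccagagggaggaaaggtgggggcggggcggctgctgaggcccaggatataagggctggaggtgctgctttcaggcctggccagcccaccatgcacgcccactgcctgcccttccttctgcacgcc
CER1: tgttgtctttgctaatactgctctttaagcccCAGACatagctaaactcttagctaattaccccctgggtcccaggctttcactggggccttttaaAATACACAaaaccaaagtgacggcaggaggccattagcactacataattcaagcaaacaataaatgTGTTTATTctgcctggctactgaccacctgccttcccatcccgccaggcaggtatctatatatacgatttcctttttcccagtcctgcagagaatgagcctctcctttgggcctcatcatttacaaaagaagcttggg
FST: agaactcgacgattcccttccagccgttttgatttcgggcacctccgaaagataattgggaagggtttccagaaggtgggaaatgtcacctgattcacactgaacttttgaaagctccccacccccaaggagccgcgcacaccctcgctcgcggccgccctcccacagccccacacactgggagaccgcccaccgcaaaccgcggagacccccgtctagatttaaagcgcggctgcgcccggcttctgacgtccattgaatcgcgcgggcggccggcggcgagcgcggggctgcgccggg
CER1 held a SMAD box at -218 to -214 and FOXH1 motifs at -154 to -147 and -88 to -81, counted from the start site with the base before it as -1. NODAL held a single SMAD box at -237 to -233, and none of the 4 motifs occurred in the FST window. The table of promoters held 6 of the 9 members in 7 windows, with TDGF1 listed in 2 windows under its other name CRIPTO. GDF3 had 2 SMAD boxes and a FOXH1 motif, INHBA had a SMAD box, and a T-box half-site occurred in 1 of the TDGF1 windows. LEFTY1, LEFTY2 and FOXH1 had no promoter entry. Across all 35116 promoters in the table, 45.3% held a SMAD box, 11% a FOXH1 motif, 2.62% a TCF/LEF motif and 11.4% a T-box half-site. These matches describe letters in the window and are not evidence of binding.

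Depth per library, in expected counts, was 3.16 to 7.81 M in the daily series, shallowest at Day2 (3.16 to 3.60 M), and 2.53 to 8.96 M in the course. Levels are expected counts scaled to a common library total (CPM). A count of 0 allows up to 3 counts, a floor of 0.384 to 0.949 CPM in daily libraries and of 0.335 to 1.18 CPM in course libraries. The stage labels were set against summed marker levels. Summed mesendoderm markers (T, MIXL1, EOMES, GSC) were 672 to 697 CPM at Day1, against 1.21 to 8.50 CPM at Day0. Presomitic markers were 226 to 530 CPM at Day2, against 34.8 to 48.0 CPM at Day1, and somite markers were 557 to 695 CPM at Day3, against 17.4 to 26.3 CPM at Day2. Pluripotency markers were still present in the later libraries, at 971 to 1087 CPM at Day3, against 4298 to 4524 CPM at Day0. In bulk RNA, fewer cells of a type and less RNA per cell cannot be told apart. Whether replicates were separate cultures is not stated by the labels, and the p-values rest on a spread between libraries that may be technical only.

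Day0 replicate 1 stood apart from the other Day0 libraries in the genes described here. NODAL was 53.9 CPM in it, against 6.00 and 5.50 CPM in replicates 2 and 3, and LEFTY1 was 46.5 CPM, against 4.42 and 1.24 CPM. Relative to the mean of the other replicates it was 16.4 times higher for LEFTY1, 9.36 times for NODAL, 4.63 times for GDF3, 2.76 times for LEFTY2 and 1.92 times for FST, but 0.748 times for TDGF1. The feedback inhibitor SMAD7 was 63.4 CPM in replicate 1, against 17.7 and 18.1 CPM. NANOG was 156 CPM, against 67.0 and 72.1 CPM, while SOX2 was 103 CPM, against 106 and 108 CPM. Markers of other lineages were also higher in replicate 1, with SOX1 at 25.7 CPM, against 2.47 and 2.58 CPM, and FOXA1 at 12.2 CPM, against 0 in both others. Of 10133 genes with a Day0 mean of at least 5 CPM, 47 (0.464%) were at least 5-fold above the mean of the other replicates in replicate 1, 5 (0.0493%) in replicate 2 and 3 (0.0296%) in replicate 3. Comparisons with Day0 are therefore given with and without this library.

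**Figure D1:**
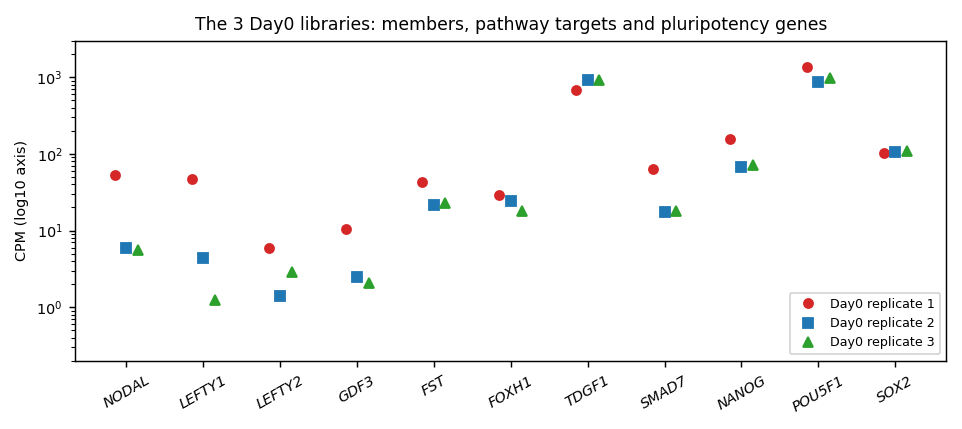
CPM (vertical axis, log10) of 7 of the genes, the target SMAD7 and the pluripotency genes NANOG, POU5F1 and SOX2 (horizontal axis) in the 3 Day0 libraries, each library with its own symbol. Replicate 1 lies far above the others for LEFTY1 (16.4 times their mean) and NODAL (9.36 times), and below them for TDGF1 (0.748 times).

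NODAL was the ligand with the largest swing. It measured 53.9, 6.00 and 5.50 CPM in the Day0 libraries, 352, 404 and 356 CPM at Day1, 1.71, 3.16 and 0.833 CPM at Day2, and 2.28, 0 and 0.640 CPM at Day3. All Day1 libraries lay above every other library, and the Day2 and Day3 libraries overlapped each other below all Day0 libraries. With edgeR's quasi-likelihood F test and Benjamini-Hochberg adjustment over 12765 genes, NODAL was 16.9-fold higher at Day1 than at Day0 (log2 fold change 4.08, SE 0.65, adjusted p = 0.000725, n = 3 each). Without Day0 replicate 1 the log2 fold change was 6.03. At Day2 it was 178-fold lower than at Day1 (log2 fold change -7.47, SE 0.86, edgeR adjusted p = 3.73e-05). A gene is called here when its adjusted p is below 0.05 and its log2 fold change is 1 or more in size.

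GDF3, a ligand related to nodal that uses the same co-receptor, stayed low throughout. It measured 10.5, 2.47 and 2.04 CPM at Day0, 3.44, 3.20 and 2.01 CPM at Day1, 2.57, 0.316 and 4.17 CPM at Day2, and 0.163, 0.221 and 0.324 CPM at Day3. Day0 to Day2 overlapped, and the Day3 libraries lay below all others except Day2 replicate 2. No step between successive days was called, with edgeR adjusted p = 0.724 for Day1 against Day0, 0.936 for Day2 against Day1 and 0.0502 for Day3 against Day2. Leaving out Day2 replicate 2 made the last step a call at a log2 fold change of -3.76 (adjusted p = 0.0232). INHBA, whose product dimerizes to activin A, had 5.99 counts in Day0 replicate 1 and 3 counts in Day3 replicate 1, and 0 counts in the other 10 daily libraries. Its own transcript was thus at or near the detection floor on all days, including Day1, when activin A was in the medium.

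TDGF1, the co-receptor for nodal, was abundant in undifferentiated cells and mesendoderm and scarce afterwards. It measured 680.5, 910.2 and 910.2 CPM at Day0, 502, 618 and 500.0 CPM at Day1, 21.9, 4.45 and 6.11 CPM at Day2, and 2.66, 4.87 and 1.29 CPM at Day3. The Day0 libraries lay above the Day1 libraries, the Day2 libraries far below both, and Day3 overlapped Day2. Day1 against Day0 was not called (log2 fold change -0.60, SE 0.34, edgeR adjusted p = 0.330). Day2 was 44.5-fold lower than Day1 (log2 fold change -5.48, SE 0.43, edgeR adjusted p = 1.08e-06). Day3 was 4.71-fold lower than Day2 (log2 fold change -2.23, SE 0.51, edgeR adjusted p = 0.00592), and without Day2 replicate 1 that step was -1.22 with adjusted p = 0.0585. Without the same library the step to Day2 was -6.51. TDGF1 had counts that were not whole in 47 of 58 libraries, and 1003 of the 2464 windows of 50 bases in its longest listed transcript (40.7%) occur in the genomic copy TDGF1P3, which the tables do not list, so its level is uncertain to that extent.

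FOXH1 is the DNA-binding partner of SMAD2 and SMAD3. It measured 29.3, 24.5 and 18.2 CPM at Day0, 44.4, 55.2 and 47.6 CPM at Day1, 15.1, 8.23 and 6.67 CPM at Day2, and 20.8, 7.08 and 6.27 CPM at Day3. Day1 libraries were above all others, and Day3 replicate 1 reached into the Day0 range. FOXH1 was 4.41-fold lower at Day2 than at Day1 (log2 fold change -2.14, SE 0.44, edgeR adjusted p = 0.00352). Day1 against Day0 (log2 fold change 1.06, adjusted p = 0.136) and Day3 against Day2 (-0.05, adjusted p = 0.948) were not called. An edgeR fit of the 6 Day0 and Day1 libraries alone did call the first of these steps (1.06, adjusted p = 0.00386).

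The antagonists followed 3 different courses. CER1 measured 0.261, 0.530 and 1.55 CPM at Day0, 447, 535 and 345 CPM at Day1, 0.285, 0.316 and 1.11 CPM at Day2, and 0.190, 0.221 and 1.02 CPM at Day3. It was high at Day1 alone, and the other days overlapped near the floor. CER1 was 590-fold higher at Day1 than at Day0 (log2 fold change 9.21, SE 0.43, edgeR adjusted p = 2.06e-09) and 662-fold lower at Day2 than at Day1 (log2 fold change -9.37, SE 0.47, adjusted p = 6.08e-09). With 14 counts in all at Day0 and 6 at Day2, single libraries move these folds, and the log2 fold changes were 10.15 without Day0 replicate 3 and -10.24 without Day2 replicate 3. CER1 is also expressed by endoderm. The endoderm markers SOX17 and FOXA2 averaged 0.627 and 1.98 CPM at Day1, and the 6 endoderm markers summed to 19.7 to 33.1 CPM at Day1, against 12.9 to 30.5 CPM at Day0. Of these 6, FOXA1 averaged 4.05 CPM at Day0 (SD 7.02) and 0.179 CPM at Day1, and CXCR4 10.7 and 17.0 CPM. GATA6, listed with the gastrulation targets and outside the 6, averaged 0.0871 CPM at Day0 and 135 CPM at Day1. The part of endoderm cells in the CER1 values was not tested.

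LEFTY1 measured 46.5, 4.42 and 1.24 CPM at Day0, 18.7, 20.1 and 10.1 CPM at Day1, 0, 1.58 and 0 CPM at Day2, and 0.190, 0 and 0.128 CPM at Day3. LEFTY2 measured 5.92, 1.41 and 2.89 CPM at Day0 and 12.8, 11.6 and 1.29 CPM at Day1, and had 0 counts in all 6 libraries of Day2 and Day3. Both lefty genes were thus present on the first pair of days with wide spread and at or near the floor afterwards. At Day2, LEFTY1 was 28.4-fold lower than at Day1 (log2 fold change -4.83, SE 1.28, edgeR adjusted p = 0.0149), and LEFTY2 was at least 29.4-fold lower, with the 3 counts of the floor taken over the group (adjusted p = 0.00833). All 5 LEFTY1 counts at Day2 were in replicate 2, without which the call held (adjusted p = 0.0159), and the log2 fold change was -4.23 without Day2 replicate 1 and -4.19 without replicate 3. Summed as a pair, the lefty genes were 43.6-fold lower at Day2 than at Day1 (log2 fold change -5.45, SE 1.15, adjusted p = 0.00409). Day1 against Day0 was not called for LEFTY1 (log2 fold change -0.07, SE 0.92, adjusted p = 0.984), LEFTY2 (1.35, SE 1.03, adjusted p = 0.516) or the pair (0.28, adjusted p = 0.892), and the value for LEFTY1 was 2.58 without Day0 replicate 1 (adjusted p = 0.191).

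FST rose at Day1 and stayed high. It measured 42.8, 21.7 and 22.7 CPM at Day0, 265, 213 and 216 CPM at Day1, 139.5, 215 and 220.03 CPM at Day2, and 148, 275 and 285 CPM at Day3. No library of the later days came down to the Day0 range, and the later days overlapped one another. FST was 8.06-fold higher at Day1 than at Day0 (log2 fold change 3.01, SE 0.29, edgeR adjusted p = 4.31e-06). The steps to Day2 (log2 fold change -0.13, adjusted p = 0.783) and to Day3 (0.06, adjusted p = 0.902) were not called. Replicate 1 was lowest on both Day2 and Day3.

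**Figure D2:**
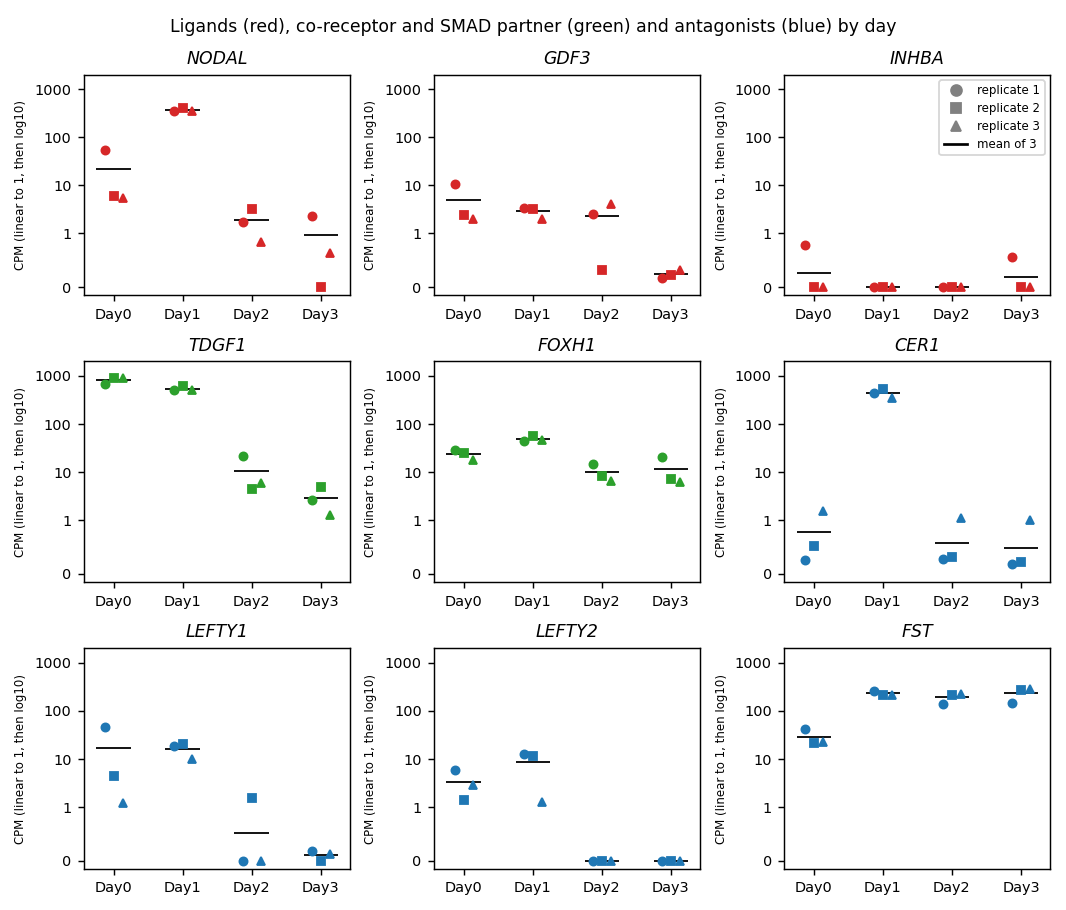
Level of each of the 9 genes (panels; vertical axis, CPM, linear up to 1 and log10 above) in the 3 libraries of Day0, Day1, Day2 and Day3 (horizontal axis); points are libraries and bars are means of 3. CER1 stands above 340 CPM at Day1 and at or below 1.55 CPM on every other day, FST stays above 139 CPM from Day1, and INHBA has counts in 2 libraries.

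Counted over the members, 3 of the 8 tested were higher at Day1 than at Day0 (NODAL, CER1 and FST). None was lower with edgeR, at an unadjusted p under 0.05 or with DESeq2. Among all genes tested, 5.18% were called in this comparison, 2.72% higher and 2.46% lower. The median log2 fold change of the 8 was 1.20, against -0.01 over all genes. At Day2, 6 of 8 were lower than at Day1 (NODAL, LEFTY1, LEFTY2, CER1, TDGF1 and FOXH1) and none was higher, also not at an unadjusted p under 0.05 or with DESeq2, where 11.7% of all genes were called, 3.58% higher and 8.16% lower. Here the median was -5.15, or -4.85 with LEFTY2 set at its bound, against -0.04 over all genes. At Day3, TDGF1 alone was called against Day2, where 13.1% of all genes were called, 9.03% higher and 4.03% lower. Of the members already scarce at Day2, NODAL (log2 fold change -1.16, edgeR adjusted p = 0.551) and CER1 (-0.30, adjusted p = 0.843) were not called. LEFTY1 had 2 counts in all at Day3 and 5 at Day2, a ratio of 0.233 (exact 95% counting interval 0.0222 to 1.43), and LEFTY2 had none on either day. In the test for any difference among the 4 days all 8 passed, with GDF3 closest to the limit (edgeR adjusted p = 0.0436), and 43.6% of all genes did.

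Against undifferentiated cells the 2 later stages showed loss of NODAL, lefty and TDGF1 transcripts beside raised FST. These comparisons share the Day0 libraries. A second co-receptor pair, CFC1 and CFC1B, was instead higher at Day3 in the values given at the end, and was not tested. At Day2, against Day0, 1 member was higher and 4 were lower, where 19.7% of all genes were called, 8.3% higher and 11.4% lower. TDGF1 was 67.4-fold lower (log2 fold change -6.07, edgeR adjusted p = 1.19e-07), NODAL (-3.39, adjusted p = 0.00769) and LEFTY1 (-4.90, adjusted p = 0.00819) were lower, LEFTY2 was at least 12.5-fold lower (adjusted p = 0.0139), and FST was 7.38-fold higher (2.88, adjusted p = 4.60e-06). Without Day0 replicate 1, NODAL (-1.44, adjusted p = 0.0616) and LEFTY1 (-2.23, adjusted p = 0.163) were no longer called, and 3 members remained. Without Day2 replicate 1 the TDGF1 value was -7.10. At Day3, against Day0, 1 member was higher and 5 were lower, where 14.2% of all genes were called, 7.07% higher and 7.09% lower. TDGF1 was 317-fold lower (-8.31, adjusted p = 5.65e-09), NODAL (-4.55, adjusted p = 0.00133) and GDF3 (-4.15, adjusted p = 0.0150) were lower, and LEFTY2 was at least 21.5-fold lower (adjusted p = 0.00825). LEFTY1 had 2 counts in all at Day3, so that its pooled ratio was 0.00560 with an exact 95% counting interval of 0.000676 to 0.0204 (adjusted p = 0.00191). FST was 7.69-fold higher (2.94, adjusted p = 2.27e-06). Without Day0 replicate 1 the values were -2.60 for NODAL and -4.40 for LEFTY1, and without Day3 replicate 1 NODAL was at -5.80. GDF3 was not called without Day0 replicate 1 (-3.003, adjusted p = 0.119) or Day3 replicate 1 (-3.98, adjusted p = 0.0579). FOXH1 was not called at Day2 (-1.08, adjusted p = 0.0695) or Day3 (-1.13, adjusted p = 0.0677), but was called at Day3 when Day3 replicate 1 was left out (-1.92, adjusted p = 0.00348) and at Day2 when Day2 replicate 1 was (-1.50, adjusted p = 0.0283). CER1 was not called at Day2 (adjusted p = 0.897) or Day3 (adjusted p = 0.702), nor was GDF3 at Day2 (adjusted p = 0.506). For FOXH1, leaving out Day3 replicate 1 (adjusted p = 0.0242) or replicate 3 (adjusted p = 0.0483) also brought the Day2 call, and leaving out Day2 replicate 1 the Day3 call (adjusted p = 0.0392). FOXH1 was also called lower at Day3 with DESeq2 (-1.14, adjusted p = 0.0467) and with no filter in edgeR (-1.15, adjusted p = 0.0442). Limma on log2 TPM at both pseudocounts called it at Day2 (-1.35 and -1.44) and Day3 (-1.27 and -1.36), as did edgeR with a replicate block. DESeq2's size factors in edgeR and a fit of the 6 libraries of both days alone called it on neither day.

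**Figure D3:**
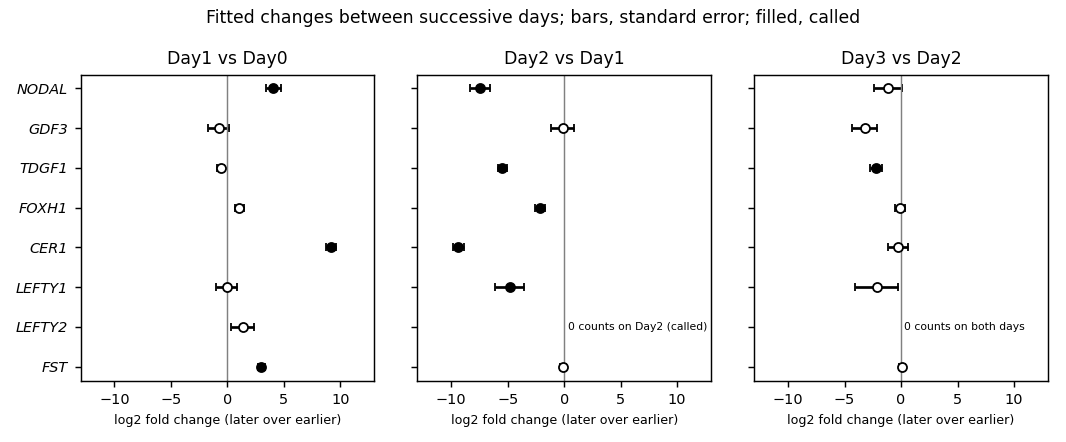
Log2 fold change of each gene (rows) for Day1 over Day0, Day2 over Day1 and Day3 over Day2 (panels; horizontal axis, log2 units), with bars of 1 SE; filled points are called (adjusted p below 0.05 and a change of 1 log2 unit or more). CER1 (9.21) and NODAL (4.08) lie far right at Day1 over Day0 and far left at Day2 over Day1 (-9.37 and -7.47), and LEFTY2 is written out where a day has 0 counts.

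Levels were compared between genes only in TPM, the deposited unit that divides by transcript length. At Day0 TDGF1 led with a mean of 1004 TPM, and only it stood clear of the next gene, FST at 36.7 TPM. FOXH1 at 26.2, LEFTY1 at 25.3, NODAL at 24.6 and GDF3 at 9.72 TPM followed with overlapping libraries. At Day1 the order was CER1 at 828 TPM and TDGF1 at 615 TPM, which overlapped, then NODAL at 398, FST at 279.9, FOXH1 at 50.3 and LEFTY1 at 22.5 TPM, each clear of the next. At Day2 FST led with 224 TPM, clear of TDGF1 at 13.3 TPM and of all others. FST led again at Day3 with 287 TPM, above FOXH1 at 11.5 TPM and TDGF1 at 3.61 TPM.

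Summed by role, the antagonists with FST included exceeded the ligands in every daily library. The ligands NODAL, GDF3 and INHBA together had 81.6, 12.0 and 10.3 TPM at Day0, 385, 433 and 392 TPM at Day1, 6.37, 3.79 and 8.68 TPM at Day2, and 3.18, 0.41 and 1.33 TPM at Day3. The antagonists LEFTY1, LEFTY2, CER1 and FST together had 127, 38.3 and 36.8 TPM at Day0, 1199, 1285 and 934 TPM at Day1, 155, 247 and 274 TPM at Day2, and 168, 337 and 360.2 TPM at Day3. Both sums were highest at Day1, and from Day2 the ligands were lower than in any Day0 library while the antagonists were higher. What made up the antagonist sum changed. FST was 41.3%, 75.5% and 77.8% of it in the Day0 libraries. CER1 was 70.0%, 77.0% and 70.2% of it in the Day1 libraries, and FST was 98.9% to 99.9% of it in the 6 libraries of Day2 and Day3. Without FST, the antagonist sum lay below the ligand sum in every Day0 and Day2 library and above it in every Day1 library. At Day3 the sums without FST had no steady order. Transcript sums say nothing of protein or of the activin A added to the medium.

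**Figure D4:**
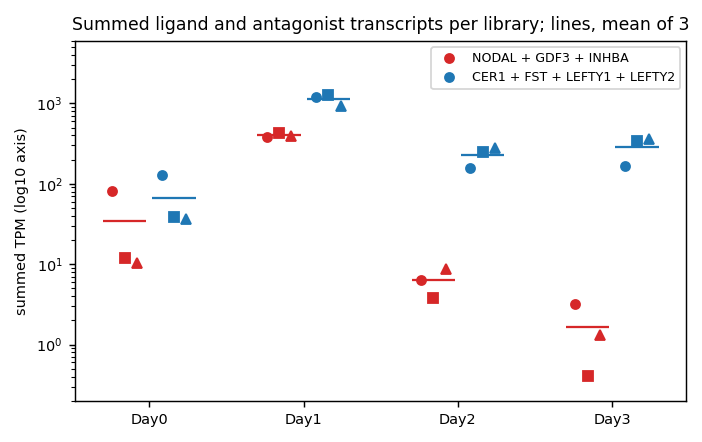
Summed TPM of the ligands (NODAL, GDF3, INHBA) and of the antagonists (LEFTY1, LEFTY2, CER1, FST) per daily library (vertical axis, log scale; horizontal axis, day); points are libraries and bars are means. The antagonists average 1139.7 TPM and the ligands 403 TPM at Day1, and 288 TPM and 1.64 TPM at Day3.

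Other genes of the pathway were taken from lists by role. Direct feedback targets of SMAD signals split at Day1, with PMEPA1, a negative regulator of TGFβ signals, higher than at Day0 (117 ± 8.71 CPM at Day1, 26.0 ± 10.1 CPM at Day0; log2 fold change 2.20, edgeR adjusted p = 0.0486) and the corepressor SKIL lower (123 ± 19.2 CPM at Day1, 338 ± 44.3 CPM at Day0; -1.43, adjusted p = 0.00130; SD, n = 3). At Day2, 3 of these 4 targets were lower than at Day1, where 8.16% of all genes were. PMEPA1 was 4.55 ± 7.18 CPM (log2 fold change -4.51, adjusted p = 9.38e-04), SMAD7 was 1.02 ± 1.53 CPM at Day2, against 35.7 ± 1.78 CPM at Day1 (-4.91, adjusted p = 3.98e-04), and SKIL was 21.1 ± 9.15 CPM (-2.39, adjusted p = 2.38e-05). The median of the 4 was -3.45, against -0.04 over all genes. None was called with edgeR between Day3 and Day2, and PMEPA1 alone had an unadjusted p under 0.05, on the lower side.

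Transcription factors that nodal and activin induce at gastrulation moved in the same direction as NODAL at the first and the next step. MIXL1, EOMES and GSC among them are also in the mesendoderm marker sum above, so the stage check and this list are not separate observations. Of 8 listed, 6 were tested, and 4 were higher at Day1 than at Day0, where 2.72% of all genes were. EOMES averaged 356 ± 41.0 CPM at Day1 and 2.08 ± 1.49 CPM at Day0 (adjusted p = 1.65e-06), MIXL1 91.7 ± 15.7 CPM at Day1 and 0.305 ± 0.528 CPM at Day0 (adjusted p = 2.48e-06), GATA6 135 ± 10.9 CPM and 0.0871 ± 0.151 CPM (adjusted p = 1.28e-07), and GSC 38.9 ± 8.12 CPM and 0.915 ± 1.58 CPM (adjusted p = 0.00893), all by edgeR. At Day2, 5 of the 6 were lower than at Day1, where 8.16% of all genes were, with log2 fold changes from -5.17 for EOMES to -3.58 for GSC. At Day3, GATA6 was higher than at Day2, and MIXL1 and EOMES were lower. Of 5 Wnt targets, 4 were higher at Day1 than at Day0, where 2.72% of all genes were. At Day2, LEF1 and TNFRSF19 were higher than at Day1, where 3.58% of all genes were, and AXIN2 was below the limit of size (log2 fold change -0.73, adjusted p = 0.0404).

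None of the 7 tested receptors and co-receptors and none of the 9 SMADs and partners was called with edgeR between Day1 and Day0 or between Day2 and Day1. Not every change was under the limit of 1 log2 unit. At Day1 against Day0 the log2 fold change was -1.23 for TGFBR2 (SE 0.74, adjusted p = 0.368) and -1.15 for ACVR1C (SE 1.49, adjusted p = 0.740). ACVR2B had an adjusted p under the limit at Day1 against Day0 (log2 fold change -0.75, adjusted p = 0.0400), as did SKI (-0.65, adjusted p = 0.0270) and TGIF2 (-0.97, adjusted p = 0.00884) at Day2 against Day1. At an unadjusted p under 0.05 there was 1 receptor gene in each comparison (ACVR2B and ACVR2A), and 1 and 5 of the SMADs and partners. The receptor TGFBR2 was called lower at Day2 than at Day0 (-2.62, adjusted p = 0.0231). The type I activin receptor ACVR1B averaged 25.5, 24.1, 21.3 and 31.8 CPM from Day0 to Day3. Between Day3 and Day2 the corepressor TGIF2 was the only one of the 9 called (log2 fold change 1.10, adjusted p = 0.00372), and 3 others had an adjusted p under 0.05 with a smaller change. Among other ligands of the family, TGFB1 was higher at Day1 than at Day0 (37.0 ± 5.03 CPM at Day1, 3.21 ± 2.48 CPM at Day0; 3.56, adjusted p = 0.00293) and lower at Day2 than at Day1 (-2.96, adjusted p = 0.00592). TGFB2 took the opposite side at the second step and was higher at Day2 than at Day1 (2.52, adjusted p = 0.00272) and again at Day3 than at Day2 (1.64, adjusted p = 0.0151), with 37.2 ± 7.09 CPM at Day3.

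In the presomitic time course, CER1 rose over the second part of the course. Its median was 0.228 CPM over the libraries of 30 to 90 min (range 0 to 0.610), 0 at 120 to 180 min, and 0 at 210 to 270 min (range 0 to 0.852). It was 3.59 CPM at 300 to 360 min (range 0.873 to 11.6), 12.4 CPM at 390 to 450 min, 39.0 CPM at 480 to 540 min, 52.1 CPM at 570 to 630 min and 64.1 CPM at 660 to 690 min (range 54.1 to 68.6). From 300 min every library lay above every earlier one, with 0.873 CPM the lowest from then and 0.852 CPM the highest before, both within the range of the floor. Over the whole course CER1 rose, with a fitted log2 change of 9.53 from 30 to 690 min (SE 0.48, edgeR adjusted p = 8.48e-25, n = 46 libraries). In pooled counts, 1719 at 630 to 690 min against 7 at 30 to 90 min gave a ratio of 226 (exact 95% counting interval 109.6 to 564), and the log2 change between these windows was 7.68 (edgeR adjusted p = 1.53e-21).

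RIPPLY1, a gene of forming somites, separated its libraries at the same time, 300 min, with at least 2.88 CPM from then and at most 1.04 CPM before. The somite genes MEOX1 and TCF15 did so from 180 min. Summed somite markers were 731 to 932 CPM at 630 to 690 min, against 8.73 to 20.4 CPM at 30 to 90 min. Summed endoderm markers were also higher, 199 to 337 CPM late against 79.4 to 174 CPM early. Most of that was CXCR4, with a median of 255 CPM late and 122 CPM early, while SOX17 had 4 counts and FOXA2 45 counts in all 46 libraries. The part of other cell types in the CER1 values was not tested beyond these levels. The Day3 somite libraries had 0.190 to 1.02 CPM of CER1, far below the 49.2 to 69.5 CPM of the libraries at 630 to 690 min, and this difference between series was not tested.

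FST fell early and came part of the way back. Its median was 117 CPM at 30 to 90 min (range 101 to 146), 105 CPM at 120 to 180 min and 81.7 CPM at 210 to 270 min. It was 38.1 CPM at 300 to 360 min (range 34.8 to 47.0), 36.6 CPM at 390 to 450 min, 45.8 CPM at 480 to 540 min, 61.1 CPM at 570 to 630 min and 79.3 CPM at 660 to 690 min (range 52.5 to 97.1). The largest break was between the libraries at 300 min, with 36.8 and 47.0 CPM, and those at 270 min, with 86.8 and 102 CPM. FST differed among the times (edgeR adjusted p = 4.74e-11), and its fitted log2 change from 30 to 690 min was -1.04 (SE 0.22, adjusted p = 1.48e-04). That change falls under the limit of 1 when either library at 30 min or replicate 1 at 60 min is left out, at -0.98, -0.96 and -0.99, and the log2 difference of 630 to 690 min over 30 to 90 min was -0.76 (adjusted p = 3.62e-05). FST was also the only member that passed a test for a rhythm of 300 min beside a quadratic trend (adjusted p = 0.0208), where 0.132% of all genes did. That share of 18 genes is not steady, with 23 to 195 genes when a library is left out, 249 with DESeq2 and 644 with no filter. FST passed with a period of 330 min (adjusted p = 0.00120), where 615 genes did, and did not pass with a period of 270 min (adjusted p = 0.458) or beside a linear trend (adjusted p = 0.937), and HES7, the clock gene of the series title, did not pass itself (adjusted p = 0.406).

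TDGF1 was low in the course and declined further. Its median was 5.23 CPM at 30 to 90 min, 4.53 CPM at 120 to 180 min, 4.31 CPM at 210 to 270 min and 2.25 CPM at 300 to 360 min, with 0.291 CPM at 570 to 630 min and 1.74 CPM at 660 to 690 min. The fitted log2 change was -2.22 (SE 0.54, edgeR adjusted p = 8.10e-04), while the log2 difference of 630 to 690 min over 30 to 90 min was -1.55 (adjusted p = 0.0642) and the test for any difference among times gave adjusted p = 0.0697. A single library, replicate 2 at 450 min, reached 9.38 CPM. FOXH1 stayed between 16.03 and 46.2 CPM with a median of 28.5 CPM, and its trend was not called (-0.20, SE 0.15, adjusted p = 0.330).

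NODAL was scarce in the course, with 154 counts in all and 22 of 46 libraries at 0. All 6 libraries at 120 to 180 min were at 0, and the median at 210 to 270 min was 2.25 CPM. The highest values were 5.72 CPM in replicate 2 at 450 min and 5.28 CPM in replicate 2 at 660 min, while both libraries at 240 min had 2.87 and 2.80 CPM. Neither the trend (0.80, SE 1.05, edgeR adjusted p = 0.603) nor the test for any difference among times (adjusted p = 0.0909) was passed. LEFTY1 was at 0 in 37 of 46 libraries and LEFTY2 in 45, with 23.09 and 2 counts in all. GDF3 was at 0 in 33 libraries and in all from 570 min. INHBA was at 0 in 27 and reached at most 2.04 CPM. These 4 genes did not pass the filter and were not tested.

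Counted over the members, 2 of the 5 tested differed among the times (CER1 and FST), where 28.9% of all genes did. In the trend test 3 of 5 were called, with CER1 higher and TDGF1 and FST lower, where 12.1% of all genes were, 5.78% higher and 6.34% lower. Of the listed genes around them, TGFB2 (fitted log2 change 4.27, edgeR adjusted p = 2.93e-12), TGFB1 (1.84, adjusted p = 2.47e-10) and TMEFF1, an inhibitor of nodal in frog embryos (1.48, adjusted p = 6.94e-13), rose over the course. BAMBI, a decoy receptor (-2.59, adjusted p = 1.20e-09), and the proprotein convertase PCSK5 (-1.14, adjusted p = 1.75e-08) fell, as did MIXL1 and EOMES. In the test among times 1 receptor of 8 (ACVR2B), 7 SMADs and partners of 9 and 1 feedback target of 4 (SKIL) passed, beside the 28.9% of all genes. In the trend test none of these 3 lists had a gene called with edgeR. By adjusted p alone 2, 5 and 1 of their genes passed with changes under 1 log2 unit, among them ACVR2B (0.92, adjusted p = 3.38e-10) and TGIF2 (0.87, adjusted p = 1.64e-10), and by an unadjusted p under 0.05 there were 2, 6 and 2. The receptor list holds CFC1 without its near-copy CFC1B.

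**Figure D5:**
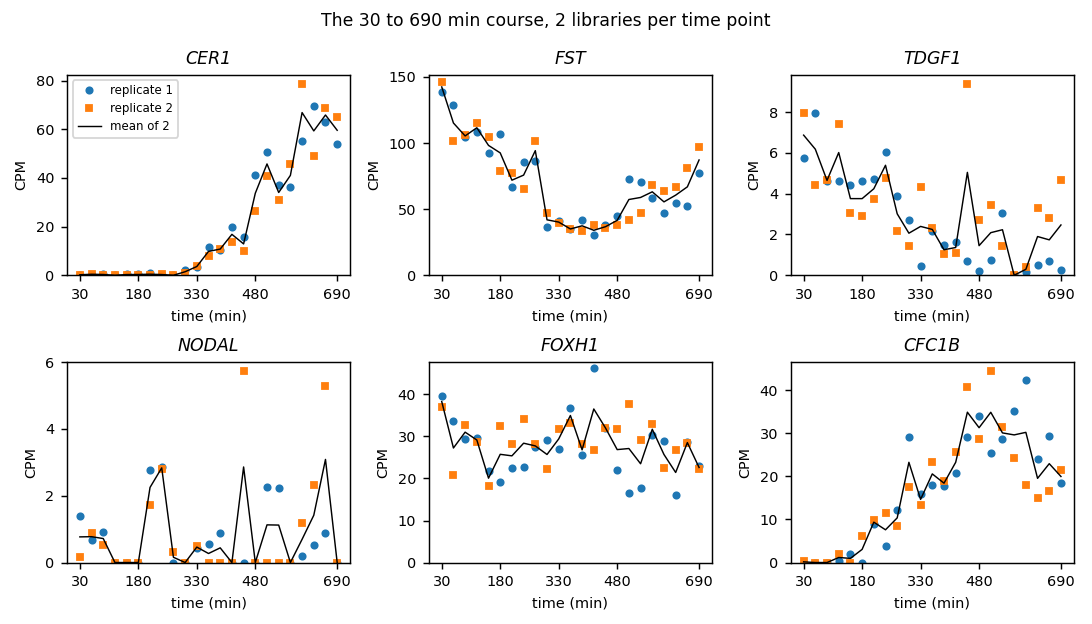
Levels of CER1, FST, TDGF1, NODAL and FOXH1, and of CFC1B, a second co-receptor gene whose reads are shared with CFC1 (panels; vertical axis, CPM) against time (horizontal axis, 30 to 690 min) in the 2 libraries at each time (points) with the line through their means. From 300 min every CER1 library lies above all earlier ones, though the lowest of them is still within the range of the floor. CER1 reaches a mean of 66.8 CPM at 600 min, while FST has its lowest mean, 34.0 CPM, at 420 min.

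The genes whose levels ran most like a member's were found by the Pearson correlation of log2 CPM, among 7993 genes over the 12 daily libraries and 10252 genes over the 46 course libraries. These values describe libraries that share days, times and depth, and genes are not independent. Nearest to CER1 over the days were WARS (r = 0.988), DKK4 (0.985) and SERPINB9 (0.972). DKK4, a Wnt antagonist, averaged 149 CPM at Day1, 0.0871 CPM at Day0 and 0 at Day2 and Day3. Nearest to NODAL were CRLS1 (0.960), YRDC (0.957) and CYP26A1 (0.952), the last an enzyme that degrades retinoic acid. Nearest to FST were ZBTB10 (0.972), SETD7 (0.970) and SOAT1 (0.955), and nearest to TDGF1 was LEMD3 (0.972). In the course CER1 ran closest to RIPPLY1 (0.980), CAST (0.960) and ADD3 (0.957), and FST to TOP1 (0.913), DDX21 (0.891) and KIAA0020 (0.888). For TDGF1 the closest gene in the course was PREX1 (0.729).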

How the data were processed

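For 58 libraries and 19084 genes the authors deposited expected counts, which can be fractions, and TPM. Libraries were made with LM-seq, per the labels' protocols. The submitters' processing notes name Bowtie 0.12.2 and list the builds hg19 and mm8; what program counted the reads is not given in the sources used. TPM was scaled to 1000000 per library in the deposited table. Every column matched a sample.

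CPM is the expected count divided by the library total. For tests, expected counts were rounded and fitted with edgeR 4.0.16 in R 4.3.3 (TMM, filterByExpr, quasi-likelihood F tests, Benjamini-Hochberg adjustment over all genes tested), with all 12 daily or all 46 course libraries in one fit and no covariates. Time enters as a factor, as a linear term, or as a sine and cosine of period 300 min beside a quadratic trend. SE is the log2 fold change divided by the root of F. The steps were tested on simulated data. A fold against a group at 0 is a lower bound from 3 counts over the group, and intervals at 95% and floors cover counting error only. Replicates correlated at r 0.944 to 0.983 (daily) and 0.961 to 0.989 (course), and no pair was close enough to be a duplicate (chi-square over its degrees of freedom 3.74 or more).

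The members and lists were chosen with earlier results of these data known. Named genes are the 9 members, at most 4 called genes per list by adjusted p, the 3 genes of highest correlation per member, HES7 and stage markers. Gene names are the tables' own symbols, and sequences come from GRCh38, not from the authors' build. Alternatives were DESeq2 1.42.0, limma 3.58.1 on log2(TPM + 1) and log2(TPM + 0.1), other scaling, no filter, the 6 libraries of a pair of days alone, other periods and trends, a replicate block and leaving out each library. Genes for which DESeq2 gave no adjusted p stay out of counts of lost calls. Some items are not reported here.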

Additional observations from a re-analysis of the deposited data

How the results depend on the processing

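Of 328 log2 values of single members, between days and in the trend, under other settings that tested the member, 307 kept their direction and their side of the threshold, 3 lost the call, 11 gained it and 7 changed sign. At Day3 against Day2 the number of members called was 2 with DESeq2 or its size factors and 0 in a fit of the 6 libraries alone, where the count over all genes was 1008. The same kind of fit called 1139 genes and 4 members at Day1 against Day0, FOXH1 being added. At Day2 against Day0 it called 3 members. LEFTY1 and LEFTY2 did not pass its filter there, nor at Day3 against Day0. In the course, the test among times called 4 members with DESeq2 or with no filter, the window comparison called 1 in place of the trend, and the rhythm test called 0 with limma at both pseudocounts, at a period of 270 min or beside a linear trend. Values that changed sign were not called in the main comparison: LEFTY1 at Day1 against Day0 (0.99 and 1.18 with limma, 0.93 with the replicate block), FOXH1 at Day3 against Day2 (0.0837 and 0.0841 with limma) and the NODAL trend (-0.0145 with limma at a pseudocount of 0.1, -0.59 between windows). The cause was not tested.

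Leaving out each library in turn gave 435 to 826 genes at Day1 against Day0 (435 without Day1 replicate 1), 864 to 1834 at Day2 against Day1 (864 without Day1 replicate 2) and 964 to 2042 at Day3 against Day2 (964 without Day3 replicate 3). Members called ran from 0 to 2 at Day3 against Day2 and from 3 to 6 at Day2 against Day0. Sign changed among uncalled log2 values, whose ranges for Day1 against Day0 were -0.62 to 2.58 (LEFTY1) and -1.13 to 0.38 (GDF3), and for Day2 against Day1 -0.79 to 0.37 (GDF3) and -0.21 to 0.0742 (FST). For Day3 against Day2 they were -2.81 to 2.48 (LEFTY1), -1.61 to 0.56 (CER1), -0.83 to 0.35 (FOXH1) and -0.15 to 0.30 (FST). Against Day0 they were -1.03 to 0.77 (CER1) and -1.56 to 0.22 (GDF3) at Day2, and -1.78 to 0.48 (CER1) at Day3. The test among times was repeated without 6 of the 46 libraries only, with 2 or 3 members called.

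Whether replicate numbers pair the libraries was not settled. Of 18 daily pairs of equal number, 3 had deviations correlated over 0.1 (median r 0.0105), and 0 of 253 course pairs did. Among the 12 daily libraries, 6 correlated best with their own number. Weak correlation over all genes cannot exclude a shared culture or batch. With the replicate block, members called were 3, 6, 1, 6 and 7 at Day1 against Day0, Day2 against Day1, Day3 against Day2, Day2 against Day0 and Day3 against Day0, FOXH1 being added at -1.14 (adjusted p = 0.0283) and -1.26 (adjusted p = 0.0203). DESeq2 gave no adjusted p for NODAL in the daily comparisons (log2 4.12 at Day1 against Day0, -7.42 at Day2 against Day1). The median over all genes was shifted by -0.116, 0.145 and -0.196 (log2) under TMM at Day2 against Day1, Day3 against Day2 and Day2 against Day0, and by -0.254, 0.367 and -0.363 under library totals. With limma on log2(TPM + 1) the share of higher genes among those called was 42.1% at Day1 against Day0 (52.5% with edgeR), 15.3% at Day2 against Day1 (30.5%), 87.0% at Day3 against Day2 (69.1%) and 20.3% at Day2 against Day0 (42.1%). The summed lefty pair was added after the data were seen. Depth limits INHBA throughout, and NODAL, CER1 and both lefty genes from Day2 and GDF3 at Day3, where counts are few.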

Other observations

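CFC1 and CFC1B, near-identical genes for a second nodal co-receptor, were looked at after their values were seen. Their coding sequences differ at 2 of 573 positions (99.7% identical) and share 89.1% of 50-base windows, so the values below are those of the summed pair. The course figure shows CFC1B alone, and its split from CFC1 is uncertain. The pair measured 44.8, 8.41 and 11.5 CPM at Day3, from 364 counts of which 236 were in replicate 1, and had 0 counts in all 3 libraries of Day2, which makes Day3 at least 70.8-fold higher. In the time course its median was 0.386 CPM at 30 to 90 min, 1.88 CPM at 120 to 180 min, 9.37 CPM at 210 to 270 min and 20.8 CPM at 300 to 360 min, with a high of 31.3 CPM at 480 to 540 min. Pooled counts at 630 to 690 min over those at 30 to 90 min gave a ratio of 48.2 (exact 95% counting interval 27.4 to 93.9). The pair was thus present late in the course, when TDGF1 was at 0.276 to 4.66 CPM. No test was run on the pair.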
